A study of Mus musculus with 12 samples.

Results

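The genes described here export, store and move cholesterol inside cells. They are the 10 genes Abca1, Abcg1, Nr1h2, Nr1h3, Stard4, Npc1, Npc2, Lipa, Soat1 and Osbp, picked by symbol for their known roles from a table of 17210 genes, and each symbol had exactly 1 row. G1E-ER4 cells are a mouse erythroid progenitor line that lacks its own GATA1 and carries GATA1 joined to the ligand-binding domain of the estrogen receptor, so that β-estradiol (EST) switches GATA1 activity on. All 4 groups carried this fusion and a retrovirus for 24 h. Vector cells received the empty virus, SREBP2 cells a virus for the active fragment of SREBP2 (amino acids 1 to 468), and the Vector+EST and SREBP2+EST groups were in addition given EST for 6 h. Sources differ on the EST dose, 500 nM by the protocol of each sample and 200 nM by the series text. Each group had 3 libraries of poly(A)-selected RNA, and nothing in the labels says whether they came from separate cultures, so p-values measure the spread between these libraries only. The strain label is C57BL/6J, and the whole experiment uses 1 cell line. The design asks how GATA1 activation and SREBP2, alone and together, change gene expression.

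Cholesterol reaches a cell by synthesis, which SREBP2 drives, and by uptake of lipoproteins. Lipoprotein esters are split in the lysosome by LIPA, and NPC2 and NPC1 pass the freed cholesterol out of it. STARD4 and OSBP carry sterol between membranes, SOAT1 turns surplus cholesterol into esters for storage, and ABCA1 and ABCG1 export it. When oxysterols build up, the nuclear receptors LXRβ (Nr1h2) and LXRα (Nr1h3) switch on the export genes. Erythroid cells lose much of their membrane and organelles on the way to red cells.

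Abca1 and Npc2 had the largest changes with EST in Vector cells among the 7 genes tested, in opposite directions, and their upstream sequences are shown because they were the only members with a match to any of the motifs searched. A window of 250 bases upstream of the start site was found for 7 of the 10 genes in RefSeq (GRCm38.p6). Both strands were searched for AGATAA and TGATAA (forms of the GATA motif), CACGTG (an E-box, which SREBP proteins can bind) and TCACNCCAC (an SRE-like motif), none of which overlapped another in these windows. The Abca1 stretch is chr4:53159989-53160145 on the minus strand and the Npc2 stretch is chr12:84773153-84773229 on the minus strand. Bases inside an annotated exon or gene were left off, and capitals mark the motif.

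Abca1: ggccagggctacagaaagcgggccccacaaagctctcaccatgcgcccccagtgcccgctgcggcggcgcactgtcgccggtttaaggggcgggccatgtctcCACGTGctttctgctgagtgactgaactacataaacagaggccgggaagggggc
Npc2: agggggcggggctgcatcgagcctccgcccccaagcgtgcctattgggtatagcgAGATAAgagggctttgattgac

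The Abca1 window held CACGTG, with its first base 147 bases before the start site, as did 6.02% of all 32851 windows. That window is chr4:53159896-53160145, so its start site lies inside the annotated gene, whose span, given below, reaches 53159988. The Npc2 window held AGATAA, with its first base 62 bases before the start site, as did 9.99% of all windows. The other motifs, found in 7.94% (TGATAA) and 1.05% (TCACNCCAC) of all windows, were in none of the windows of the 7 genes. A match is a string of letters in a window and no evidence of binding.

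The libraries held 18700959.38 to 19152281.47 estimated counts each, and 3 counts, taken as the lowest detected level, came to 0.153 to 0.163 CPM, that is, counts divided by library size. Levels below are CPM after scaling between libraries, as mean ± SD of 3 libraries, and libraries are named by group and the number in the table's header. Mouse Srebf2 was read first, at 355 to 370 CPM in Vector and 432 to 456 CPM in Vector+EST. It stood at 797 to 837 CPM in SREBP2 and 801 to 814 CPM in SREBP2+EST. The authors' figure legends call the introduced transcript human SREBP2. How many of its reads were counted for the mouse gene is not known, so these levels do not measure the introduced gene. The labels call the cells embryonic stem cells. The 10 erythroid markers summed to 5845 CPM or more in every library and none was at 0, whereas the 4 of 6 pluripotency markers in the table summed to 0.65 CPM or less. The erythroid sum was 8006 to 8399 CPM in Vector, 6431 to 6457 CPM in Vector+EST, 5976 to 6911 CPM in SREBP2 and 5845 to 6413 CPM in SREBP2+EST. Single markers moved both ways with EST in Vector cells. Slc4a1 went from 66.1 to 69.6 CPM down to 2.46 to 3.13 CPM, and Alas2 from 51.9 to 52.3 CPM up to 130 to 142 CPM. SREBP2 library 1 and SREBP2+EST library 1 stood apart from their groups, with a mean chi-square per gene of 6.06 to 10.3 against the other libraries of their group and of 1.80 to 3.24 for all other pairs of replicates. On the 2 leading principal components, each of these libraries lay nearer to the other group than to its own. SREBP2 library 1, at 29.6 and 9.81, lay beside libraries 2 (31.0 and 9.04) and 5 (31.2 and 9.41) of SREBP2+EST. SREBP2+EST library 1, at 26.1 and 16.1, lay nearer to libraries 3 (22.5 and 17.9) and 5 (22.4 and 17.4) of SREBP2. Over all genes, SREBP2 library 5 was slightly nearer to SREBP2+EST library 1 (root mean square log2 difference 0.319) than to SREBP2 library 1 (0.322), although by mean distance 0 of 12 libraries were nearest to another group. The 2 libraries themselves were each nearest to a library of their own group, SREBP2 library 1 to library 3 (0.309, against 0.331 or more to any SREBP2+EST library) and SREBP2+EST library 1 to library 2 (0.316, against 0.319 or more to any SREBP2 library). By a sum of 10 fibroblast markers they also lay with their own groups, SREBP2 library 1 at 5.45 CPM with 7.53 and 6.34 CPM in libraries 3 and 5, and SREBP2+EST library 1 at 21.3 CPM with 35.3 and 18.8 CPM in libraries 2 and 5. Whether the 2 libraries were exchanged was not tested, and the labels do not tell. Every value of EST in SREBP2 cells rests on them, and the values without both are given below. The fibroblast markers summed to 36.7 CPM in Vector+EST library 5 and to 18.8 to 35.3 CPM in SREBP2+EST, against 6.11 and 6.23 CPM in the other Vector+EST libraries, 5.45 to 7.53 CPM in SREBP2 and 20.6 to 21.3 CPM in Vector. The Vector sum was nearly all Col1a2, and the defining collagen Col1a1 was at or under 0.0542 CPM in every Vector and SREBP2 library and at 6.50 to 13.8 CPM in SREBP2+EST. In Vector+EST it ran from 0 to 13.4 CPM.

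Of the 10 genes, 7 had enough counts to be tested, and Abcg1, Nr1h3 and Lipa did not. With EST in Vector cells, Abca1 and Stard4 fell and Npc2, Npc1, Nr1h2 and Osbp rose, so 6 of 7 passed the threshold of an adjusted p under 0.05 (4 higher, 2 lower). That threshold was passed by 70.6% of all 11177 genes tested, 35.2% higher and 35.5% lower, so the number of calls was near the background. With SREBP2 and no EST, Stard4, Npc2, Npc1, Nr1h2 and Osbp rose and Abca1 fell, which is 6 of 7 against a background of 71.5% (37.7% higher, 33.8% lower). With SREBP2 in the presence of EST, Stard4, Abca1 and Npc2 rose, 3 of 7 against a background of 21.9% (14% higher, 7.94% lower). The share of higher genes among these calls was 63.7%, and 42.2% under library totals. EST in SREBP2 cells changed 0 of the 7 past the threshold, against a background of 0% of genes. At an unadjusted p under 0.05, 4.53% of all genes passed in that comparison by edgeR's test, and DESeq2 called 12 genes, none of them a member. The difference between the EST effects of SREBP2 and Vector cells was past the threshold for 5 of 7 genes, against a background of 59% (29.8% higher, 29.2% lower).

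Abca1 (Entrez 11303; chr4:53030789-53159988), the transporter that loads cellular cholesterol onto lipid-poor apolipoprotein, was highest in untreated Vector cells and lowest in Vector+EST. It stood at 9.59, 10.2 and 10.7 CPM in the Vector libraries 1, 4 and 5, from 187 to 209 counts. The Vector+EST libraries 1, 3 and 5 held 1.80, 1.05 and 1.27 CPM, from 20 to 35 counts. All 3 lay below every Vector library, and the groups' libraries did not overlap for 75.7% of all genes. The fall was 7.36-fold (log2 fold change -2.88 ± 0.16 SE, edgeR adjusted p = 1.47e-10), and Abca1 ranked 71 from the lowest of the 11177 genes.

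SREBP2 cells without EST held 5.45, 6.12 and 6.07 CPM of Abca1 in libraries 1, 3 and 5, between the levels of Vector and Vector+EST. They did not overlap the Vector libraries, as for 74.8% of all genes. The SREBP2 level was 1.73-fold below Vector (log2 fold change -0.79 ± 0.13, adjusted p = 2.98e-05). SREBP2+EST libraries 1, 2 and 5 held 6.50, 5.17 and 4.90 CPM, which lay 2.00 ± 0.18 above Vector+EST on the log2 scale (adjusted p = 2.91e-07). The libraries of SREBP2+EST and Vector+EST did not overlap for Abca1, as for 38.1% of all genes. SREBP2 was thus associated with a lower Abca1 level in cells without EST and a higher level in cells with EST. Within SREBP2 cells, the EST effect on Abca1 was -0.09 on the log2 scale, with a 95% interval from -0.38 to 0.20. The difference between the 2 EST effects was 2.79 ± 0.22 on the log2 scale (adjusted p = 2.00e-08), which ranked 81 from the highest.

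Markers of macrophages, which express much Abca1, were also scored: their 10 genes summed to 4.45 to 5.14 CPM in Vector, 3.09 to 3.45 CPM in Vector+EST, 2.66 to 4.01 CPM in SREBP2 and 2.05 to 4.06 CPM in SREBP2+EST. Most of this was Cd68, at 3.63 to 4.36 CPM in Vector and 2.78 to 3.08 CPM in Vector+EST. The defining markers Adgre1, Cd14 and Marco had at most 1 count in any library. Neural markers, scored in the same way, were highest in Vector too: their 10 genes summed to 10.5 to 12.5 CPM there, 2.07 to 2.93 CPM in Vector+EST, 3.90 to 6.01 CPM in SREBP2 and 2.64 to 3.19 CPM in SREBP2+EST. Most of the Vector sum was the tubulin gene Tubb3, at 7.57 to 8.51 CPM against 1.03 to 1.25 CPM in Vector+EST, and Gap43 and Stmn2 had at most 2 counts in any library. The part of other cell types in the Abca1 levels was not tested, and in bulk RNA fewer cells of a type and less RNA per cell cannot be told apart.

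Abcg1 (Entrez 11307; chr17:31057694-31117984), which exports cholesterol to mature high-density lipoprotein, was barely detected. It had 0 to 4 counts per library and 17 in all 12 libraries together, and 11 of the 12 were at or under 3 counts. A change between groups was not detectable at this depth.

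The LXR receptors were present in unequal measure. Nr1h2 (Entrez 22260; chr7:44549616-44553968), coding for the widely expressed LXRβ, stood at 109 ± 3.69 CPM in Vector, 129 ± 7.58 CPM in Vector+EST, 130 ± 2.18 CPM in SREBP2 and 133 ± 7.06 CPM in SREBP2+EST. All 9 libraries with EST, SREBP2 or both (122 to 140 CPM) lay above the Vector libraries (106 to 113 CPM). How many of all genes show this pattern was not computed. By pairs of groups, Vector did not overlap Vector+EST for 75.7% of all genes, nor SREBP2 for 74.8%. EST in Vector cells raised Nr1h2 by 0.25 ± 0.05 on the log2 scale (adjusted p = 0.000269) and SREBP2 without EST by 0.26 ± 0.05 (adjusted p = 0.000221). Neither SREBP2 with EST (0.04, 95% interval -0.06 to 0.15) nor EST in SREBP2 cells (0.04, -0.06 to 0.14) passed the threshold. The difference of the EST effects was -0.21 ± 0.07 (adjusted p = 0.0160), a call lost without Vector library 4 (-0.17), Vector library 5 (-0.16) or Vector+EST library 5 (-0.15), or without the 2 libraries that stood apart (-0.14), with adjusted p from 0.0714 to 0.0964.

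Nr1h3 (Entrez 22259; chr2:91184061-91202829), coding for LXRα, had 2 to 9 counts per library and 76 in all. Its group means ran from 0.269 CPM in SREBP2+EST to 0.401 CPM in Vector+EST, and it was not tested. When no gene was left out for low counts, none of Nr1h3, Abcg1 and Lipa passed the threshold in any comparison, the lowest adjusted p being 0.553. Per kilobase of the median annotated coding-gene transcript (GENCODE M21), the Vector level was 74.9 CPM for Nr1h2 and 0.202 CPM for Nr1h3.

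The lysosomal pair Npc1 and Npc2, whose products act in sequence, was higher in every group than in Vector. Npc2 (Entrez 67963; chr12:84754559-84773112) codes for the soluble protein that picks up cholesterol inside the lysosome. It stood at 65.7, 69.8 and 68.5 CPM in Vector libraries 1, 4 and 5, and at 348, 317 and 331 CPM in SREBP2 libraries 1, 3 and 5. Vector+EST libraries 1, 3 and 5 held 236, 231 and 232 CPM, and SREBP2+EST libraries 1, 2 and 5 held 327, 356 and 360 CPM. The Vector libraries were the lowest, the Vector+EST libraries were next, and the 2 SREBP2 groups were highest and overlapped each other. Libraries did not overlap for 75.7% of all genes between Vector and Vector+EST and 74.8% between Vector and SREBP2. Between Vector+EST and SREBP2+EST the share was 38.1%.

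Npc2 rose 3.42-fold with EST in Vector cells (log2 fold change 1.78 ± 0.05, adjusted p = 2.86e-14) and 4.88-fold with SREBP2 without EST (2.29 ± 0.05, adjusted p = 1.26e-15), both measured against the same Vector libraries. Among all genes it had the 267th and the 264th highest value. SREBP2 raised it by less in the presence of EST, 1.49-fold (0.58 ± 0.04, adjusted p = 4.45e-08). EST added 0.07 on the log2 scale in SREBP2 cells (95% interval -0.02 to 0.16). The difference of the EST effects was -1.71 ± 0.06 (adjusted p = 5.12e-12). Without the 2 libraries that stood apart, the EST effect in SREBP2 cells was 0.15 for Npc2 (adjusted p = 0.00894) and -0.15 for Stard4 (adjusted p = 0.0098), and both passed the threshold, among 1567 genes in all. The other 5 tested did not pass there, at -0.27 for Abca1, 0.08 for Nr1h2, 0.04 for Npc1, 0.63 for Soat1 and 0.08 for Osbp (adjusted p from 0.109 to 0.829). The 2 libraries left out were picked from these same data for standing apart from their groups, which can favour calls. With 2 libraries left in each SREBP2 group, these p-values are no independent test.

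Npc1 (Entrez 18145), coding for the membrane protein that takes cholesterol over from NPC2, moved less. It stood at 14.0 ± 1.62 CPM in Vector, 20.9 ± 0.690 CPM in Vector+EST, 20.5 ± 1.73 CPM in SREBP2 and 19.9 ± 1.03 CPM in SREBP2+EST. The highest Vector library (15.9 CPM) lay below the lowest library of any other group (19.1 CPM). Vector libraries did not overlap those of Vector+EST for 75.7% of all genes, nor those of SREBP2 for 74.8%. Npc1 counts carried decimals in every library, which means that some reads were shared out between this gene and other sequences. EST in Vector cells raised Npc1 1.49-fold (log2 fold change 0.57 ± 0.09, adjusted p = 1.67e-05) and SREBP2 without EST 1.46-fold (0.55 ± 0.09, adjusted p = 2.64e-05). The EST effect in SREBP2 cells was -0.04 (95% interval -0.22 to 0.13) and the SREBP2 effect with EST -0.07 (-0.24 to 0.11). The difference of the EST effects was -0.62 ± 0.12 (adjusted p = 0.000323).

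The ratio of Npc2 to Npc1 counts needs no scaling between libraries. It was 4.13 to 5.31 in Vector, 10.7 to 11.4 in Vector+EST, 15.4 to 17.1 in SREBP2 and 16.7 to 18.7 in SREBP2+EST. Vector and Vector+EST overlapped neither each other nor the SREBP2 groups, whose ranges overlapped.

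Lipa (Entrez 16889; chr19:34492316-34527474), the lysosomal acid lipase that frees cholesterol from lipoprotein esters, had 0 counts in 8 of 12 libraries and 6 counts in total. All 12 libraries were at or under 3 counts, so no group held it above the lowest detected level, and no difference was detectable at this depth.

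Stard4 (Entrez 170459) codes for a small soluble protein that shuttles cholesterol between the plasma membrane and the endoplasmic reticulum, and it is a known SREBP2 target. It stood at 203, 206 and 208 CPM in Vector libraries 1, 4 and 5. SREBP2 libraries 1, 3 and 5 held 494, 521 and 508 CPM, and SREBP2+EST libraries 1, 2 and 5 held 510, 466 and 460 CPM. Vector+EST libraries 1, 3 and 5 held 145, 149 and 136 CPM. The Vector+EST libraries were the lowest and the Vector libraries next, and the 2 SREBP2 groups overlapped above them. Vector libraries did not overlap those of Vector+EST for 75.7% of all genes, nor those of SREBP2 for 74.8%. Between Vector+EST and SREBP2+EST the share was 38.1%.

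SREBP2 raised Stard4 2.47-fold without EST (log2 fold change 1.30 ± 0.04, adjusted p = 3.10e-13) and 3.34-fold with EST (1.74 ± 0.05, adjusted p = 4.11e-14). EST lowered it 1.43-fold in Vector cells (-0.52 ± 0.05, adjusted p = 3.41e-08). In SREBP2 cells the EST effect was -0.08, with a 95% interval from -0.18 to 0.01. The difference of the EST effects was 0.44 ± 0.06 (adjusted p = 1.82e-05). For scale, the synthesis enzyme gene Hmgcs1 had log2 fold changes of 1.25 and 2.02 with SREBP2 without and with EST.

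**Figure D1:**
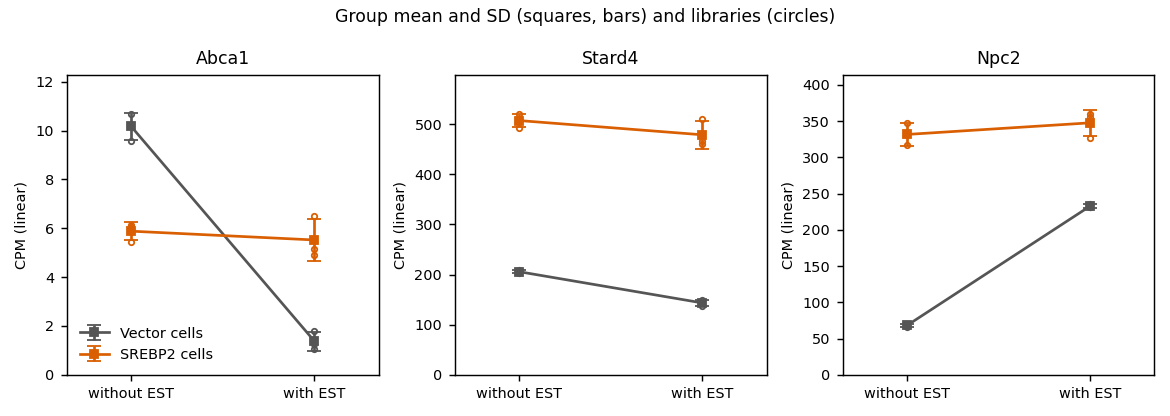
CPM (linear axis from 0) of Abca1, Stard4 and Npc2 without and with EST in Vector cells (grey) and SREBP2 cells (orange); squares are group means, bars the SD (n = 3) and circles single libraries. The grey lines fall for Abca1 and Stard4 and rise for Npc2, whereas the orange lines run nearly level, between 5.52 and 5.88 CPM for Abca1.

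Osbp (Entrez 76303; chr19:11965844-11994114), coding for a protein that moves sterol to the Golgi in exchange for a phosphoinositide, varied little. It stood at 104 ± 1.17 CPM in Vector, 113 ± 2.43 CPM in Vector+EST, 124 ± 6.74 CPM in SREBP2 and 124 ± 5.42 CPM in SREBP2+EST. The Vector libraries (103 to 105 CPM) lay below all others (111 to 131 CPM). Vector did not overlap Vector+EST for 75.7% of all genes, nor SREBP2 for 74.8%. SREBP2 without EST raised Osbp by 0.25 ± 0.05 on the log2 scale (adjusted p = 0.000104). For EST in Vector cells the change was 0.13 ± 0.05 (adjusted p = 0.0181). That call was lost when at least 10 counts were asked of every library (adjusted p = 0.076) and without Vector library 1 (0.0562), Vector library 4 (0.125), Vector library 5 (0.171), Vector+EST library 1 (0.0683) or SREBP2+EST library 2 (0.0548). The SREBP2 effect with EST was 0.13 ± 0.05 (adjusted p = 0.0584). It passed the threshold without SREBP2 library 1 (0.0192) or SREBP2+EST library 1 (0.0328), or without both (0.0036), with an adjusted p of up to 0.235 in the other alternatives. The EST effect in SREBP2 cells was 0.00 (95% interval -0.09 to 0.10), and the difference of the EST effects was -0.13 (adjusted p = 0.0993), which passed in 1 of 19 alternatives, without SREBP2+EST library 5 (-0.16, adjusted p = 0.0454). It was -0.01 (adjusted p = 0.832) without the 2 libraries that stood apart.

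The ratio of Stard4 to Osbp counts was 1.96 to 2.02 in Vector, 3.76 to 4.33 in SREBP2, 1.23 to 1.31 in Vector+EST and 3.55 to 4.29 in SREBP2+EST. The carriers thus moved unequally: Vector+EST was lowest, and all 6 libraries with SREBP2 lay above all 6 without it.

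Soat1 (Entrez 20652; chr1:156428108-156474328), which esterifies cholesterol in the endoplasmic reticulum, was low throughout, at 24.49 to 48.77 counts per library, and its counts too carried decimals. It stood at 1.65 ± 0.123 CPM in Vector, 1.52 ± 0.197 CPM in SREBP2 and 1.62 ± 0.211 CPM in Vector+EST, and these 3 groups overlapped. The SREBP2+EST libraries 1, 2 and 5 held 2.17, 1.99 and 2.64 CPM and lay above all 9 other libraries (1.30 to 1.80 CPM). By pairs of groups, SREBP2+EST did not overlap Vector+EST for 38.1% of all genes, nor SREBP2 for 7.43%.

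No Soat1 difference passed the threshold in the 4 comparisons of 1 factor. The log2 fold change was -0.03 with EST in Vector cells (95% interval -0.45 to 0.39) and -0.12 with SREBP2 without EST (-0.55 to 0.31). It was 0.48 ± 0.19 with SREBP2 in the presence of EST (adjusted p = 0.0848). EST in SREBP2 cells gave 0.57 ± 0.19, with an unadjusted p of 0.00958 and an adjusted p of 0.919, and ranked 128 from the highest of all genes. The libraries of these 2 groups did not overlap for Soat1, as for 7.43% of all genes. The difference of the EST effects was 0.60 ± 0.28 (adjusted p = 0.0754), which passed in 1 of 19 alternatives, when at least 10 counts were asked of every library (adjusted p = 0.0463), and had an adjusted p of up to 0.194 in the others. The fibroblast marker sums given above were 18.8 to 35.3 CPM in SREBP2+EST and 5.45 to 7.53 CPM in SREBP2, and the collagen gene Col1a1 stood at 6.50 to 13.8 CPM and at most 0.0542 CPM in these groups. In Vector+EST the sums ran from 6.11 to 36.7 CPM and Col1a1 from 0 to 13.4 CPM. The part of fibroblast markers in the Soat1 levels was not tested.

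**Figure D2:**
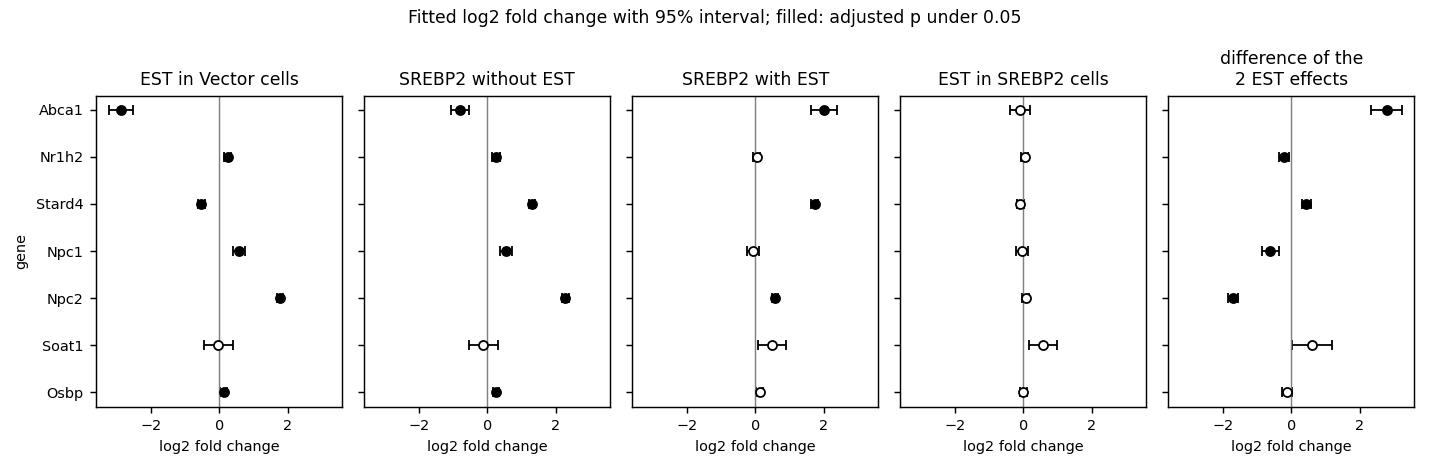
Fitted log2 fold change (points) with its 95% interval (bars) for the 7 genes tested, in 5 panels for the 4 comparisons and the difference of the 2 EST effects; filled points have an adjusted p under 0.05. In the fourth panel all 7 points are open, at values from -0.09 (Abca1) to 0.57 (Soat1).

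The 2 treatments were also set directly against each other, a comparison added after the other results were known and one that does not use the Vector libraries as a shared control. Against Vector+EST, SREBP2 cells without EST held more Stard4 (log2 fold change 1.82 ± 0.05, adjusted p = 2.21e-14), more Abca1 (2.09 ± 0.18, adjusted p = 1.42e-07) and more Npc2 (0.51 ± 0.04, adjusted p = 2.05e-07). These were 3 of 7 genes, against a background of 23.4% (14.4% higher, 8.96% lower). Of all genes called, 61.7% were higher, and 42.2% when only library totals were used for scaling. The difference was 0.00 for Nr1h2 (95% interval -0.10 to 0.11), -0.02 for Npc1 (-0.20 to 0.15), -0.09 for Soat1 (-0.52 to 0.34) and 0.12 for Osbp (0.03 to 0.22, adjusted p = 0.0605). The Osbp difference passed without SREBP2 library 5 (adjusted p = 0.0459) or SREBP2+EST library 1 (adjusted p = 0.0494), 2 of 20 alternatives, with an adjusted p of up to 0.233 in the others.

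SREBP2+EST against untreated Vector was past the threshold for all 7 genes tested, against a background of 72.7% (38.6% higher, 34.2% lower). Stard4 (1.22 ± 0.04), Npc2 (2.35 ± 0.05), Npc1 (0.50 ± 0.09), Nr1h2 (0.30 ± 0.05), Osbp (0.26 ± 0.05) and Soat1 (0.45 ± 0.19) were higher and Abca1 (-0.88 ± 0.13) was lower, as log2 fold changes. The Soat1 call (adjusted p = 0.0409) was lost in 12 of 20 alternatives, including DESeq2 (adjusted p = 0.167) and each fit without 1 of the Vector libraries (adjusted p from 0.0654 to 0.114).

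Other genes of the same routes were read from lists, with p-values adjusted over all genes. The counts are to be read against the shares of all genes called, 70.6% with EST in Vector cells (35.2% higher, 35.5% lower), 71.5% with SREBP2 without EST (37.7% higher, 33.8% lower) and 21.9% with SREBP2 when EST was present (14% higher, 7.94% lower). Of 15 LXR partners and LXR target genes, 9 were tested. With EST in Vector cells 2 were higher and 3 lower (median log2 fold change -0.04, against 0.01 over all genes). With SREBP2 without EST 5 were higher and 3 lower (median 0.25, against 0.03 over all genes), and with SREBP2 in the presence of EST 4 were higher and 1 lower (median -0.04, against 0.00 over all genes). These were 5, 8 and 5 of 9 genes, against 70.6%, 71.5% and 21.9% of all genes. Lpcat3, which remodels phospholipids, rose from 104 ± 1.02 CPM in Vector to 274 ± 11.5 CPM with EST and 444 ± 9.97 CPM with SREBP2. Scd2, a fatty acid desaturase gene, fell with EST in Vector cells (log2 fold change -0.83) and rose with SREBP2 without (1.26) and with EST (2.05). Apoe, coding for an apolipoprotein that accepts cholesterol, fell with EST in Vector cells (-1.08) and with SREBP2 without EST (-0.75). Mylip, coding for a ubiquitin ligase, rose with SREBP2 without (1.10) and with EST (1.06) from 1.38 ± 0.406 CPM in Vector. The partner gene Rxrb fell in both comparisons with Vector (-0.86 with EST, -0.88 with SREBP2), and Rxra, with at most 9 counts, was not tested.

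Among 11 other efflux transporters and lipoprotein partners, 8 were tested. In Vector cells EST raised 3 and lowered 4 (median -0.18), SREBP2 without EST raised 5 and lowered 3 (median 0.77), and with EST it raised 2 and lowered 0 (median -0.03). The calls were 7, 8 and 2 of 8 genes, where the background was 70.6%, 71.5% and 21.9%. Lcat, which esterifies cholesterol on lipoprotein particles, rose from 0.938 ± 0.167 CPM in Vector to 7.12 ± 0.406 CPM with EST and 7.08 ± 1.61 CPM with SREBP2. Scarb1, coding for a receptor for high-density lipoprotein, fell from 160 ± 2.22 CPM to 74.0 ± 1.22 CPM with EST in Vector cells and stood at 259 ± 32.9 CPM in SREBP2 and 250.4 ± 20.2 CPM in SREBP2+EST. Abca3, a lipid transporter gene, rose in both comparisons with Vector (1.24 with EST, 1.23 with SREBP2), as did Abca5 (0.80 and 1.16). Abca7, another transporter gene of this family, fell with EST in Vector cells (-0.72) and with SREBP2 without EST (-0.27), and rose with SREBP2 when EST was present (0.39). Apoa1, which codes for the main acceptor for ABCA1, had at most 3 counts and was not tested.

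All 13 of the other START-domain and GRAMD1 sterol carriers and contact-site proteins were tested. EST in Vector cells raised 7 and lowered 2 (median 0.15), SREBP2 without EST raised 7 and lowered 1 (median 0.20), and SREBP2 in the presence of EST raised 2 and lowered 0 (median 0.04). The 9, 8 and 2 calls of 13 genes stand beside shares of 70.6%, 71.5% and 21.9% over all genes. Gramd1c, coding for a sterol transfer protein of membrane contacts, rose from 3.25 ± 0.603 CPM in Vector to 24.3 ± 2.70 CPM with EST and 29.8 ± 1.86 CPM with SREBP2. Its relative Gramd1a fell with EST in Vector cells (-0.68) and rose with SREBP2 in the presence of EST (0.94). Sacm1l, coding for the phosphatase that consumes the lipid OSBP carries back, rose in all 3 comparisons (0.91, 1.51 and 0.61). Pi4ka, a kinase gene that makes this lipid, rose in both comparisons with Vector (0.72 and 0.67). Of 11 OSBP-related proteins 6 were tested. With EST in Vector cells 2 were higher and 3 lower, with SREBP2 without EST 3 and 3, and with SREBP2 in the presence of EST 0 of 6 passed, beside the same 70.6%, 71.5% and 21.9% of all genes. Osbpl8 (1.42 with EST, 1.54 with SREBP2) and Osbpl11 (1.33 and 1.21) rose and Osbpl7 fell (-0.71 and -0.62).

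All 12 genes of sterol handling in late endosomes and lysosomes, the compartment of Npc1 and Npc2, were tested. EST in Vector cells raised 7 and lowered 3 (median 0.18), SREBP2 without EST raised 10 and lowered 2 (median 0.26), and SREBP2 in the presence of EST raised 6 and lowered 0 (median 0.10). That was 10, 12 and 6 of 12 genes, where 70.6%, 71.5% and 21.9% of all genes were called. Tfe3, coding for a transcription factor of lysosome genes, rose from 68.1 ± 2.46 CPM in Vector to 314 ± 9.86 CPM with EST and 336 ± 3.22 CPM with SREBP2. Tfeb, coding for a related factor, fell in both comparisons with Vector (-0.68 and -0.59). Smpd1, coding for acid sphingomyelinase, rose in the same comparisons (1.03 and 1.22), as did Vps4a (1.00 and 0.99). Tmem97, a binding partner of NPC1, fell in both (-0.87 and -0.22) and rose with SREBP2 when EST was present (0.55). The lysosomal membrane gene Lamp2 (0.57) and Smpd1 (0.29) rose there too.

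Of 10 genes of sterol ester storage and release, 9 were tested. EST in Vector cells raised 3 and lowered 4 (median 0.06), SREBP2 without EST raised 5 and lowered 2 (median 0.17), and SREBP2 in the presence of EST raised 4 and lowered 0 (median 0.11). In all, 7, 7 and 4 of 9 genes were called, against 70.6%, 71.5% and 21.9% of all genes. Soat2, the sister enzyme of SOAT1, rose from 8.78 ± 0.997 CPM in Vector to 22.2 ± 0.621 CPM with EST and 22.3 ± 1.86 CPM with SREBP2. The lipid droplet coat gene Plin2 rose from 148 ± 3.17 CPM to 367 ± 14.02 CPM with EST and 446 ± 20.1 CPM with SREBP2. The related gene Plin3 rose in all 3 comparisons (0.57, 0.77 and 0.39). The lipase gene Pnpla2 fell with EST in Vector cells (-0.42) and rose with SREBP2 without (0.17) and with EST (0.56). Lipe, another lipase gene, rose with SREBP2 without (0.57) and with EST (0.51). Of 7 oxysterol enzymes, 5 were in the table and 1 was tested. Hsd3b7 fell with EST in Vector cells (-1.48) and with SREBP2 without EST (-1.06), and rose with SREBP2 when EST was present (0.29). Cyp27a1 and Ch25h, whose products make LXR ligands, had at most 1 count in any library.

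In SREBP2 cells, EST moved 0 genes of any of these lists past the threshold, as it moved 0 of all 11177 genes. Without SREBP2 library 1 and SREBP2+EST library 1, which were picked from these same data, the count over all lists was 5 higher and 9 lower of 79 genes tested (17.7%), against 13.9% of all 11292 genes tested. This count includes the reference list of synthesis and uptake genes described below, with 0 higher and 4 lower of 21 tested. The 5 higher genes were Osbpl11 (0.28), Osbpl1a (0.20), Osbpl9 (0.16), Plin3 (0.53) and Vps4a (0.16), and Apoe (-0.71) and Scarb1 (-0.22) were among the 9 lower. These 7 were chosen after their values were seen. Of the 22 synthesis and uptake genes listed for reference, 21 were tested and the other had at most 2 counts in any library. All 21 rose with SREBP2 (median 1.68 without EST and 1.93 with EST), and with EST in Vector cells 2 rose and 14 fell (median -0.26). Stard4 changed in the direction of these medians in all 3 comparisons, and Npc2 and Npc1 rose with EST, where 14 of the 21 fell.

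**Figure D3:**
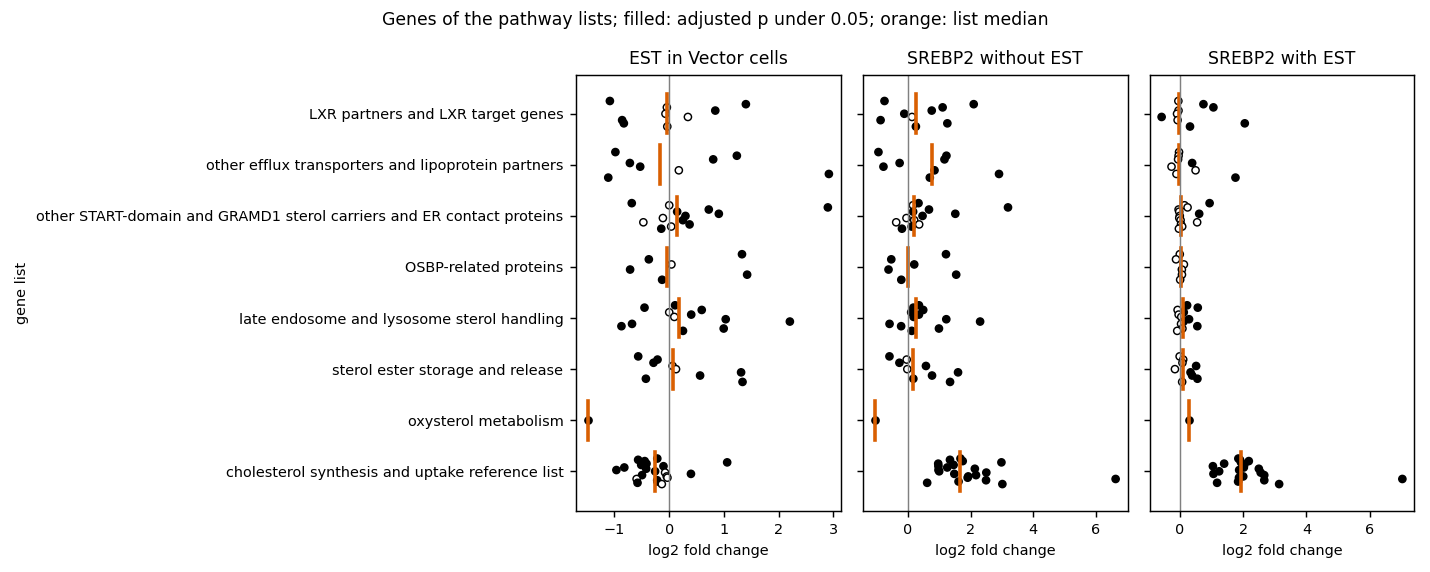
Log2 fold change of every tested gene of the 8 lists (points; filled where the adjusted p is under 0.05) with the list median (orange line), for EST in Vector cells, SREBP2 without EST and SREBP2 with EST; the axis range differs between panels. The reference list lies wholly above 0 in the 2 SREBP2 panels, whereas the other lists of more than 1 gene spread to both sides of 0 there; with EST in Vector cells all lists of more than 1 gene do, the reference list included.

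Genes with the pattern most like 3 of the members were taken as those with the highest Pearson correlation of log2 CPM over the 12 libraries, among 8553 or 8554 genes whose mean log2 CPM was 3 or more. The correlations describe 4 groups of 3 libraries, which share their depth and scaling, and carry no test. For Abca1 they were Rtn4 (r = 0.988), Lrp8 (0.988) and Gabbr1 (0.987), and 127 genes were above 0.9. Lrp8 stood at 72.8 ± 1.78 CPM in Vector, 18.8 ± 0.815 CPM in Vector+EST, 47.4 ± 3.85 CPM in SREBP2 and 43.9 ± 6.76 CPM in SREBP2+EST. For Stard4 they were Me1 (0.998) and Myh7b (0.997), with 272 genes above 0.9. Me1, coding for an enzyme that supplies reducing power for lipid synthesis, stood at 65.5 ± 1.60 CPM in Vector, 44.8 ± 0.789 CPM in Vector+EST, 148 ± 8.58 CPM in SREBP2 and 145 ± 5.22 CPM in SREBP2+EST. For Soat1 the closest was Fam160a2 (0.809), followed by Fam177a (0.710) and Med11 (0.710), and 0 genes were above 0.9.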

How the data were processed

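RNA from 12 libraries (single-end 50-base reads on the DNBSEQ platform, per the labels) had been summarised by the authors. The authors deposited estimated counts per gene, not normalized and not whole for every gene (66.5% of values were whole). The submitters' processing notes name HISAT2 2.0.4, Bowtie2 2.2.5, RSEM 1.2.12, DESeq2 1.4.5 and GRCm38.p6. The authors' own comparisons (log2 fold changes and p-values per transcript) were not used. How far reads of the introduced SREBP2, human by the authors' figure legends, are counted for mouse Srebf2 is not known.

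Counts were rounded. After filterByExpr (11177 genes kept, 6033 left out) and TMM scaling, edgeR 4.0.16 (R 4.3.3) fitted 1 mean per group over all 12 libraries, with the quasi-likelihood F-test and Benjamini-Hochberg adjustment over all genes tested. SEs were derived from the fold change and F, as the absolute value of the first over the root of the second. Group means in CPM and fitted fold changes can differ slightly. The procedure was tested on simulated data. Header numbers are not the replicate numbers of the titles. Columns were therefore matched to the titled groups by the header prefix, and not to single titled samples.

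Members and lists were chosen with earlier results of these data known. All members are named; in each list and comparison, genes named are among the 3 with the largest absolute log2 fold change past the threshold and an average log2 CPM of at least 1, plus untested genes. Some genes this rule names are not reported here. Alternatives were DESeq2 1.42.0, relative log expression scaling, library totals, no filter, a minimum of 10 counts per library, a fit of the compared groups alone, leaving out each library or a pair of them, and a block on header numbers. Intervals and detection limits cover these libraries only.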

Additional observations from a re-analysis of the deposited data

Results flagged for a closer look

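For 5 of the 7 genes tested, the effect of EST in SREBP2 cells differed from its effect in Vector cells by edgeR's test of the difference itself, which 59% of all genes tested passed. Each difference is the log2 EST effect in SREBP2 cells minus that in Vector cells. It was 2.79 for Abca1, which EST lowered in Vector cells, and 0.44 for Stard4, which EST also lowered there. It was -1.71 for Npc2 and -0.62 for Npc1, which EST raised in Vector cells. It was -0.21 for Nr1h2, whose call was lost in 4 of 19 alternatives. In all 5, the EST effect in SREBP2 cells itself did not pass the threshold, except for Npc2 and Stard4 when SREBP2 library 1 and SREBP2+EST library 1 were left out.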

How the results depend on the processing

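No call was reversed under any of the 20 alternatives (19 for the difference of the EST effects, which needs all 4 groups). The number of members called stayed at 5 to 6 for EST in Vector cells, 6 for SREBP2 without EST, 3 to 4 for SREBP2 with EST and 4 to 6 for the difference. For EST in SREBP2 cells it was 0 in 19 alternatives. It was 2 when SREBP2 library 1 and SREBP2+EST library 1 were both left out, where the number of all genes called went from 0 to 1567. These libraries were picked from the same data, which can favour calls, and the cause was not tested. The share of higher genes among all calls of SREBP2 with EST was 63.7%, and 42.2% under library totals. Libraries of number 1 and number 5 did not deviate together across groups (r from -0.174 to 0.0598 and from -0.0701 to 0.0674), so the numbers were not taken as pairs. With a replicate block on these numbers, 6, 6, 3, 0 and 5 members were called in the comparisons in the order given in the report, as without it, and only the Soat1 call in SREBP2+EST against Vector was lost (log2 fold change 0.45, adjusted p = 0.0551). The calls for Osbp and Nr1h2 that depended on single libraries are given with their values in the report. Depth limits Abcg1, Nr1h3 and Lipa, which had at most 9 counts in any library, and Soat1, with fewer than 50 counts in each.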
